A study of Mus musculus with 114 samples.

Results

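SR proteins and hnRNPs are the abundant RNA-binding proteins that coat nascent transcripts and decide which exons are kept. The members described here were chosen by symbol: every Srsf gene with a number, every Hnrnp gene, and Tra2a, Tra2b, U2af1 and U2af2. This gave 36 of the 29132 genes in the table, made up of 11 Srsf genes, 21 Hnrnp genes, 2 Tra2 genes and 2 U2AF genes. Of these, 34 passed the filter on low values and were tested among 10343 genes, 10 of them Srsf and 20 Hnrnp genes. Srsf12, with 9 reads in 7 mice, and the pseudogene Hnrnpa1l2-ps, with 1 read in 1 mouse, did not pass it.

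The study followed perigonadal adipocytes of male C57BL/6J mice through the development of diet-induced obesity. From 6 weeks of age mice were fed chow as the control diet (CD) or a diet high in fat (HFD), and adipocytes were taken after 8, 20 or 34 weeks on the diet. There were 6 mice per diet at 8 and at 20 weeks, while the oldest groups held 8 (CD) and 6 (HFD), so that 38 mice stood in 6 groups. Each mouse was sampled once, so age and time on a diet rose together in both diets and cannot be told apart. The adipocytes were the cells that floated after collagenase digestion of the fat pad. Expression was measured by polyA RNA-seq and is given as read counts scaled to a common library total (CPM, which sum to 1000000 in each mouse), and differences are on the log2(CPM + 1) scale.

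SR proteins carry arginine-serine repeats, bind exonic enhancers and recruit the spliceosome, and their activity is set by phosphorylation through the SRPK and CLK kinases. hnRNPs lack these repeats, bind exons and introns, and often oppose SR proteins at the same exon, SRSF1 and hnRNPA1 being the textbook antagonists. Tra2 proteins are SR-like coactivators, and the U2AF heterodimer recognises the polypyrimidine tract and the AG dinucleotide at the end of introns. Both families also act in mRNA export, stability and translation.

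Library depth ranged from 9275711 to 15480388 reads on genes, so that 1 read equalled 0.0646 to 0.108 CPM, and at 8 weeks every HFD library was deeper than every CD library. Markers of other cells moved with diet and time. The macrophage list (15 of its 16 markers in the table, none at 0 in all mice of a group) had a mean log2 level of 5.31 on CD and 6.81 on HFD at 8 weeks, 6.24 and 8.58 at 20 weeks, and 7.58 and 9.06 at 34 weeks. Its summed level ranged from 450 to 2110 CPM on CD at 8 weeks and from 7340 to 22000 CPM on HFD at 34 weeks. Endothelial, progenitor, mural and cycling cell markers were also higher in HFD mice, with differences in the mean log2 level of 1.2 to 1.41, 0.902 to 2.21, 0.679 to 1.26 and 1.36 to 2.39 over the 3 times. Adipocyte markers were the most abundant list in every group, with mean log2 levels of 10.53 to 11.48, and 2, 10 and 12 of 14 fell with HFD and 1, 1 and 0 rose at 8, 20 and 34 weeks. The part of these markers in the results below was not tested beyond a fit with the macrophage level as a covariate, whose values are given beside the calls it changed for the members described in full and beside the counts. In bulk RNA, fewer cells of a type and less RNA per cell cannot be told apart.

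The scale of the values matters for all comparisons between diets. The deposited CPM put the median of all tested genes at 0.11, 0.14 and 0.07 (log2, HFD against CD) at 8, 20 and 34 weeks, and scaling by trimmed mean of M values (TMM) moved these medians to 0.01, -0.07 and -0.01. Counts of members under TMM are given beside those on the deposited scale.

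Per kilobase of exon, which is the only scale on which members are compared with each other, levels spanned a wide range. Srsf5 was the highest, with a median of 91.4 CPM per kilobase over the 38 mice and a range of 53.2 to 124. Next came Hnrnpa2b1 with 79.6 (62.2 to 114), Hnrnpab with 73.1 (58.3 to 103) and Hnrnpk, a binder of C-rich RNA, with 65.5 (55.7 to 78.3). The ranges of these neighbours overlapped, so their order is not separated from the spread between mice. Hnrnpr was the lowest of the tested members on this scale, at a median of 2.13 (1.51 to 2.49). Hnrnpll was next at 5.49 (3.62 to 8.55), and their ranges did not overlap. Lengths were taken over the exons of all annotated transcripts. Hnrnpr had the longest, 22.2 kilobases, and Hnrnpll had 11.7, so their low places depend on these lengths. Exon lengths came from GENCODE vM21, which is a later release than the one used for counting.

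The promoters described next are those of members chosen by symbol, whether or not a member moved with diet. RefSeq start sites on GRCm38.p6 were found for 32 of the 36 members, and the 250 bases before to 50 bases after each start were searched on both strands. The GC box GGGCGG was present in 27 of 32 members (84.4%) and in 38.2% of all 27025 genes with a start, and CCAAT in 19 (59.4%) and 41.1%. CCGGAAGT, a core of ETS sites, was found in 5 members (15.6%) and 4.31% of all genes, GCATGCGC of NRF1 in 3 (9.38%) and 3.05%, CACGTG in 5 (15.6%) and 8.09%, and TGACGTCA, the cAMP response element, in 1 (3.12%) and 2.03%. TATAAA occurred in 4 (12.5%) and 15.7%, and AAGATGGCG of YY1 in 0 and 1.64%. Member promoters had a median GC content of 67.2% and 30 CpG dinucleotides, while all promoters had 52.8% and 7. Such composition can raise the share with GC-rich words, and its part in these shares was not tested. A gene counted as having a word if any of its starts had it. A word may overlap another, and none is evidence of binding. Up to 120 bases upstream of the outermost RefSeq start are printed for the 4 members described in full for which the table held at least 90 such bases free of annotated exons and of other genes, with searched words in capitals. They are the SR protein with the largest 8 week fall, the Srsf gene called higher at 20 weeks, the paralog Tra2b and the hnRNP with the largest rise. They lie at chr4:131873410-131873529 (Srsf4, plus strand), chr5:115327043-115327162 (Srsf9, plus), chr16:22266006-22266125 (Tra2b, minus) and chr2:75659009-75659104 (Hnrnpa3, plus), and are written 5′ to 3′ on the strand of the gene.
Srsf4: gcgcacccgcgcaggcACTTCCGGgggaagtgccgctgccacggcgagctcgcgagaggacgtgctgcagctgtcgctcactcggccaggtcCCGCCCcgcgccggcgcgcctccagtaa
Srsf9: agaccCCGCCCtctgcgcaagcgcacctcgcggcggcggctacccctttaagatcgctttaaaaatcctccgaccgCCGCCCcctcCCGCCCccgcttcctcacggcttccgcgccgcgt
Tra2b: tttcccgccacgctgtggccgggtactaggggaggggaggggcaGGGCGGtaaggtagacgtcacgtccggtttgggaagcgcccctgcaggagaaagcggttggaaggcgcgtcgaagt
Hnrnpa3: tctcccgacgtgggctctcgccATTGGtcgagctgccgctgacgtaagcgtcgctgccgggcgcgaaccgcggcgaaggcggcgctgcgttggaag

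At 8 weeks the diet difference of this family ran one way. HFD mice had lower levels of 21 of the 34 tested members, where 15.1% of all genes tested were lower, and of 0 members were levels higher, where 29.8% of all genes were. No member was higher at an unadjusted p under 0.05 either, and neither edgeR nor DESeq2 on the whole reads called one. With array weights, however, members were called higher, Srsf9 among them. The median member differed by -0.32 (log2), against 0.11 for all genes. The members that fell were 7 of 10 Srsf genes, 12 of 20 Hnrnp genes, Tra2b and U2af1. In 15 members, all 6 HFD mice lay below all 6 CD mice, which held for 7.14% of all genes. TMM gave 30 members lower, among them all 21, where it called 21.4% of all genes lower, and the fit with the macrophage covariate gave 29, again with all 21, where it called 14.2%.

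**Figure D1:**
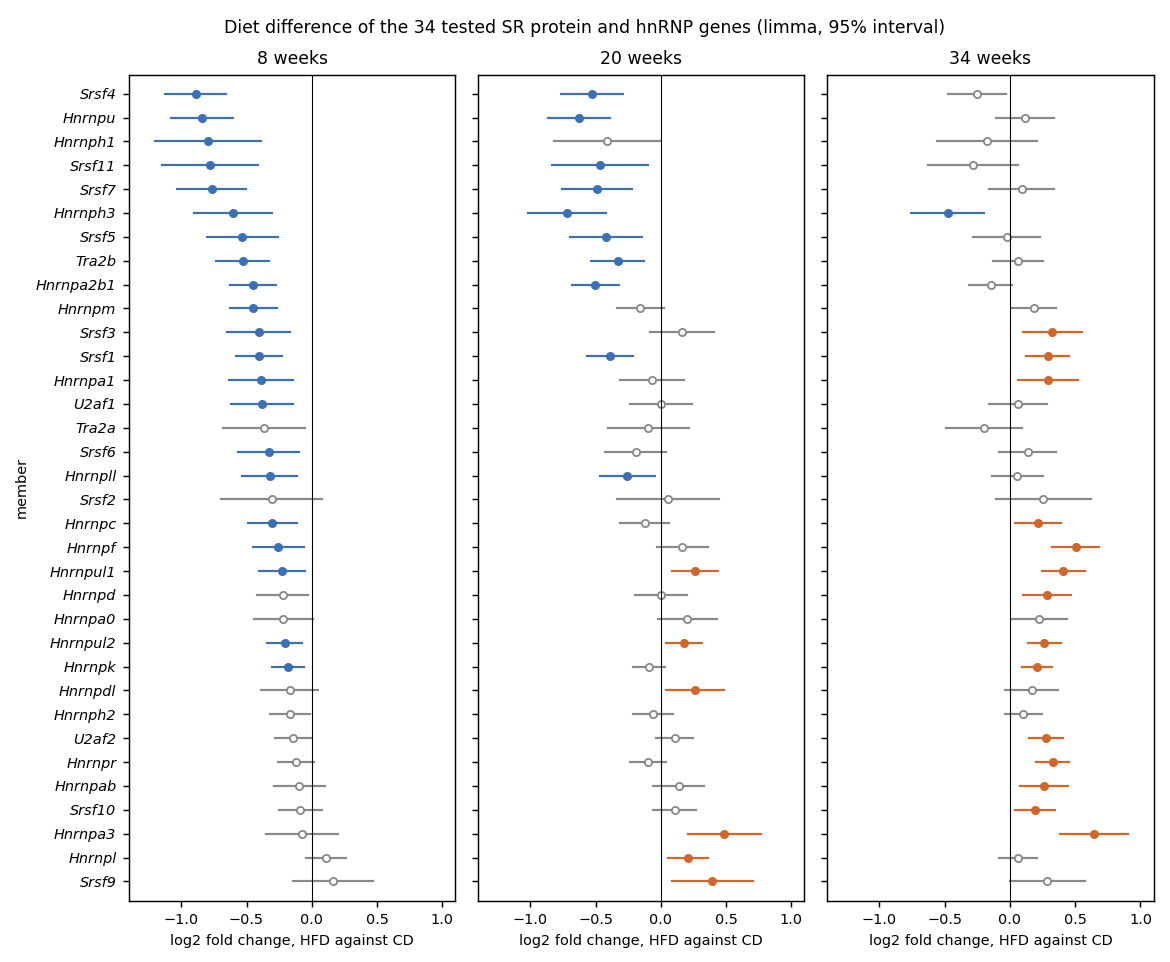
Points give the log2 fold change of HFD against CD for each of the 34 tested members at 8, 20 and 34 weeks with 95% intervals from limma; filled points passed the adjusted p threshold of 0.05 (blue lower, orange higher) and open grey points did not. All but 2 members lie left of 0 at 8 weeks, and 27 lie right of 0 at 34 weeks.

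Among the SR proteins, Srsf4 fell the most. Its CPM were 58.3, 61.9 and 82.7 (lowest, median and highest) in CD mice and 28.2, 33.9 and 47.7 in HFD mice at 8 weeks, a log2 difference of -0.89 (SE 0.12, adjusted p = 1.19e-06, limma with Benjamini-Hochberg adjustment over all genes tested). The groups did not overlap. At 20 weeks the levels were 58.4, 64.6 and 68.7 on CD and 37.7, 43.0 and 60.9 on HFD (-0.53, SE 0.12, adjusted p = 0.000257), and HFD mouse 4 alone reached into the CD range. At 34 weeks they were 33.4, 43.4 and 52.4 on CD and 30.1, 35.2 and 40.4 on HFD (-0.25, SE 0.11, adjusted p = 0.0586), and the groups overlapped. That last difference passed the threshold under TMM (-0.34, adjusted p = 0.0182). Srsf4 lies at chr4:131873530-131901725, and part of its exons is shared with an antisense gene (Gm12992) on the other strand.

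Srsf1, the first SR protein described and a promoter of exon inclusion, moved in a different way. It was measured at 107, 115 and 120 CPM on CD and 76.0, 88.3 and 90.1 on HFD at 8 weeks (-0.40, SE 0.09, adjusted p = 0.00048). The values were 95.8, 103 and 112 against 68.4, 80.0 and 84.7 at 20 weeks (-0.39, SE 0.09, adjusted p = 0.000308), and HFD mice were below all CD mice at both times. At 34 weeks CD mice had dropped to 58.3, 66.0 and 102 CPM while HFD mice stood at 75.3, 85.6 and 90.5, and the difference had the opposite sign (0.29, SE 0.08, adjusted p = 0.0051). The groups overlapped there through CD mouse 5, above every HFD mouse, and CD mouse 3, just above the lowest HFD mouse. The rise at 34 weeks lost its call with the 34 week mice fitted on their own (adjusted p = 0.0788) and with the macrophage covariate (adjusted p = 0.138). Srsf1 lies at chr11:88046499-88053757, and its exons overlap those of Gm11508 on the other strand.

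Srsf9, an SR protein with a short RS domain, was the only Srsf gene called higher with HFD at 20 weeks. It had 17.0, 24.0 and 24.5 CPM on CD and 22.0, 24.6 and 29.3 on HFD at 8 weeks (0.16, SE 0.15, adjusted p = 0.395). At 20 weeks it had 17.8, 20.3 and 25.8 against 25.7, 28.3 and 30.7 CPM (0.39, SE 0.15, adjusted p = 0.0268), and the groups touched at their edges. The call was lost under TMM (0.19, adjusted p = 0.288), with the macrophage covariate (adjusted p = 0.574) and without CD mouse 3, CD mouse 4 or HFD mouse 5 (adjusted p = 0.0545 to 0.0641). At 34 weeks it stood at 22.4, 32.8 and 54.4 on CD and 33.2, 38.9 and 59.6 on HFD (0.29, SE 0.14, adjusted p = 0.099). With array weights the 8 and 34 week differences of Srsf9 were called too (0.25 and 0.49, adjusted p = 0.037 and 0.00475), and the latter passed without CD mouse 2 or CD mouse 5 (adjusted p = 0.0164 to 0.0374). The gene lies at chr5:115327163-115333843.

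Of the other tested Srsf genes, Srsf3, Srsf5, Srsf6, Srsf7 and Srsf11 were lower at 8 weeks, by -0.33 (Srsf6) to -0.78 (Srsf11). Srsf3 and Srsf7 serve as adaptors for mRNA export besides splicing. Srsf5, Srsf7 and Srsf11 were still lower at 20 weeks, and Srsf3 and Srsf10 were higher at 34 weeks. Srsf2, a component of nuclear speckles, was called at none of the 3 times, with differences of -0.31, 0.05 and 0.25 at 8, 20 and 34 weeks, although its 8 week difference passed the threshold under TMM (-0.41, adjusted p = 0.0419) and with the macrophage covariate (-0.65, adjusted p = 0.007). Summed over the 11 Srsf genes, CPM ranged from 1252 to 1429 on CD and from 820.8 to 1073 on HFD at 8 weeks, without overlap. The sums ranged from 1142 to 1366 and 982 to 1258 at 20 weeks and from 701.8 to 1444 and 962.6 to 1237 at 34 weeks, where the groups overlapped.

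**Figure D2:**
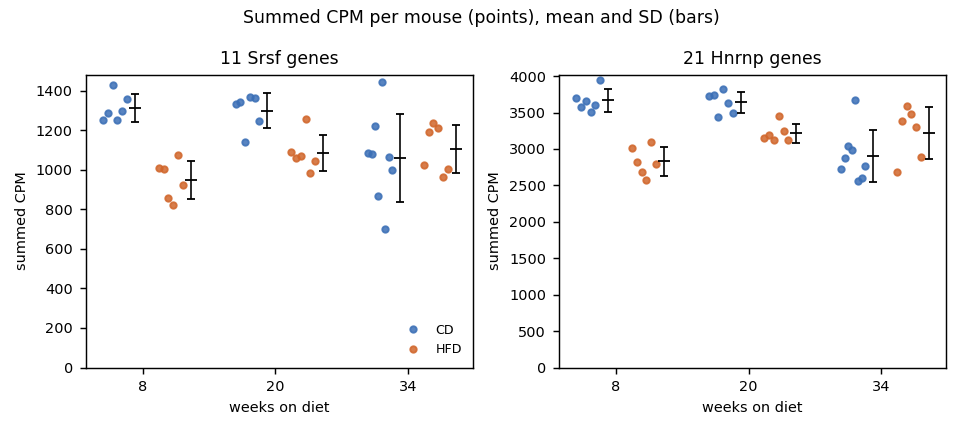
Summed CPM of the 11 Srsf genes (left) and of the 21 Hnrnp genes (right) in each mouse against weeks on diet, with the mean and SD beside the points of each group (blue CD, orange HFD). At 8 weeks the HFD sums lie below every CD sum in both families, and at 34 weeks the diets overlap.

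The Tra2 paralogs activate exons with GAA-rich enhancers. Their ratio within a mouse, given below, passed the test of a diet difference at 20 weeks only. Tra2b had 90.6, 100 and 120 CPM on CD and 61.6, 68.6 and 89.9 on HFD at 8 weeks (-0.53, SE 0.10, adjusted p = 0.000109), with no overlap. It was at 80.3, 99.4 and 114 against 68.3, 78.8 and 84.8 CPM at 20 weeks (-0.33, SE 0.10, adjusted p = 0.0053) and at 50.1, 68.0 and 85.3 against 59.5, 71.9 and 78.6 CPM at 34 weeks (0.06, SE 0.09, adjusted p = 0.602). The diet groups thus came to overlap fully. Tra2a had 63.4, 78.4 and 95.7 CPM on CD and 51.0, 57.0 and 82.3 on HFD at 8 weeks, just short of the threshold (-0.37, SE 0.15, adjusted p = 0.0501), and was called lower there under TMM (-0.47, adjusted p = 0.006), with the macrophage covariate (-0.59, adjusted p = 0.00456) and without any 1 of 9 mice. Its medians in CD and HFD mice were 74.0 and 66.6 CPM at 20 weeks and 63.5 and 56.5 at 34 weeks, with differences of -0.10 (SE 0.15, adjusted p = 0.607) and -0.20 (SE 0.14, adjusted p = 0.269). The 20 week difference of Tra2a was called under TMM (-0.31, adjusted p = 0.049). The 34 week one was called with edgeR, DESeq2 and array weights (-0.33, -0.33 and -0.31, adjusted p = 0.0409, 0.0357 and 0.0399) and without CD mouse 6 (-0.33, adjusted p = 0.0239). Tra2a and Tra2b lie at chr6:49243921-49264248 and chr16:22244552-22266005. Tra2b has 1 pseudogene in the annotation that could share its reads. Pseudogenes of members were looked for by name only, so others may have been missed.

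U2af1 and U2af2 encode the small and the large chain of U2AF. U2af1 had 30.3, 35.2 and 38.5 CPM on CD and 22.7, 27.3 and 30.4 on HFD at 8 weeks (-0.38, SE 0.12, adjusted p = 0.00881), with 1 HFD mouse at the lowest CD level. Its medians were 33.3 and 32.8 at 20 weeks (0.00, SE 0.12, adjusted p = 0.996) and 36.0 and 34.5 at 34 weeks (0.06, SE 0.11, adjusted p = 0.665), and the groups overlapped. U2af2 had 93.8, 102 and 111 CPM on CD and 87.5, 90.9 and 100 on HFD at 8 weeks (-0.14, SE 0.07, adjusted p = 0.0947), which passed the threshold under TMM (-0.25, adjusted p = 0.00503) and with the macrophage covariate (-0.25, adjusted p = 0.00837). It was at 93.7, 104 and 119 against 105, 114 and 119 CPM at 20 weeks (0.11, SE 0.07, adjusted p = 0.201), called with array weights (adjusted p = 0.0238). At 34 weeks it had 93.4, 98.3 and 126 CPM on CD and 110, 120 and 142 on HFD (0.28, SE 0.07, adjusted p = 0.00126), overlapping through CD mouse 5 alone. That rise was not called with the macrophage covariate (0.17, adjusted p = 0.0955). The chains lie at chr17:31647081-31659148 and chr7:5060885-5079945.

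Among the hnRNPs, Hnrnpu, the nuclear scaffold protein also called SAF-A, had the largest fall among the Hnrnp genes at 8 weeks. Its CPM were 548, 603 and 665 on CD and 258, 334 and 449 on HFD (-0.84, SE 0.12, adjusted p = 2.78e-06). It remained apart at 20 weeks, with 535, 587 and 641 against 341, 359 and 494 CPM (-0.63, SE 0.12, adjusted p = 3.15e-05). At 34 weeks CD mice had 250, 281 and 394 and HFD mice 258, 326 and 349 CPM (0.11, SE 0.11, adjusted p = 0.411). HFD mice were thus below every CD mouse at 8 and 20 weeks, and the ranges overlapped at 34 weeks. Hnrnpu lies at chr1:178321108-178338891, and its exons overlap those of Cox20 on the other strand.

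The H/F group binds G-rich RNA. Hnrnph1 had 257, 280 and 344 CPM on CD and 125, 162 and 252 on HFD at 8 weeks (-0.80, SE 0.20, adjusted p = 0.00203), without overlap. Its medians were 300.1 and 229 at 20 weeks (-0.41, SE 0.20, adjusted p = 0.0774) and 160 and 120 at 34 weeks (-0.18, SE 0.19, adjusted p = 0.453), and the 20 week difference was called under TMM (-0.63, adjusted p = 0.00546). Hnrnph3 was the only member called lower at all 3 times on the deposited scale. It had 31.7, 35.1 and 41.0 CPM on CD and 15.4, 22.9 and 31.8 on HFD at 8 weeks (-0.61, SE 0.15, adjusted p = 0.00145), 31.8, 33.4 and 49.2 against 19.5, 20.1 and 27.9 at 20 weeks (-0.72, SE 0.15, adjusted p = 0.000106) and 19.5, 28.6 and 39.4 against 17.3, 21.5 and 23.9 at 34 weeks (-0.48, SE 0.14, adjusted p = 0.00589). The groups were apart at 20 weeks, met at the edge at 8 weeks and overlapped at 34 weeks. The calls at 20 and 34 weeks were lost with the macrophage covariate (-0.37 and -0.26, adjusted p = 0.119 and 0.255). Hnrnpf went from lower to higher. It had 86.9, 91.7 and 105 CPM on CD and 72.9, 78.1 and 84.2 on HFD at 8 weeks (-0.26, SE 0.10, adjusted p = 0.0287), a call lost without any of 5 mice in turn (adjusted p = 0.052 to 0.0698). It had 82.6, 90.9 and 118 against 102, 105 and 117 at 20 weeks (0.16, SE 0.10, adjusted p = 0.145, called with array weights and without CD mouse 1) and 56.9, 73.1 and 92.7 against 81.1, 107 and 125 at 34 weeks (0.50, SE 0.09, adjusted p = 0.000104), with overlap at the latter times. The 3 genes lie at chr11:50375257-50386528, chr10:63014664-63023980 and chr6:117900340-117925622. On the other strand, exons of Hnrnph3 overlap those of Rufy2, and exons of Hnrnpf overlap those of 4933440N22Rik and Gm43863.

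**Figure D3:**
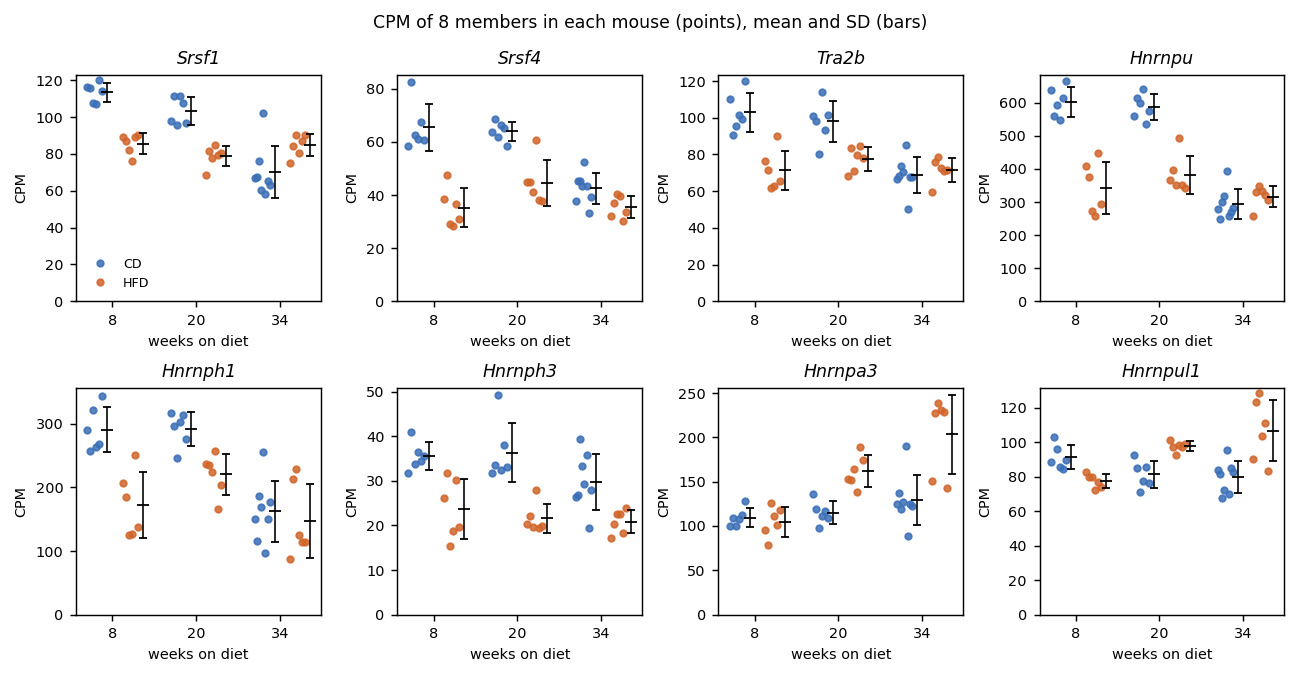
CPM of 8 members in each mouse (points) with the mean and SD beside each group, against weeks on diet (blue CD, orange HFD); every axis starts at 0. Srsf1, Srsf4, Tra2b, Hnrnpu and Hnrnph1 are lower in all HFD mice than in all CD mice at 8 weeks, and Hnrnpa3 is higher in all HFD mice at 20 weeks.

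In the A/B group, Hnrnpa3 showed the largest rise. It had 99.5, 109 and 129 CPM on CD and 78.8, 106 and 126 on HFD at 8 weeks (-0.07, SE 0.14, adjusted p = 0.682), but with the macrophage covariate it was called lower there (-0.41, adjusted p = 0.00214). HFD mice then stood above every CD mouse at 20 weeks, with 138, 159 and 189 against 97.4, 115 and 136 CPM (0.49, SE 0.14, adjusted p = 0.00291). At 34 weeks the values were 89.1, 125 and 191 on CD and 143, 229 and 239 on HFD (0.64, SE 0.13, adjusted p = 0.000274), and the groups overlapped through CD mouse 5 alone. The 20 week call missed the threshold under TMM (0.27, adjusted p = 0.0526), and with the macrophage covariate the difference was -0.04 (adjusted p = 0.822). Hnrnpa1, the antagonist of SRSF1, had 93.4, 101 and 117 CPM on CD and 69.2, 76.7 and 87.9 on HFD at 8 weeks (-0.39, SE 0.12, adjusted p = 0.00945), without overlap. Its medians were 106 and 97.0 at 20 weeks (-0.07, SE 0.12, adjusted p = 0.648) and 75.2 and 108 at 34 weeks (0.29, SE 0.11, adjusted p = 0.0377). The 20 week difference of Hnrnpa1 was called lower under TMM (-0.28, adjusted p = 0.0374) and with edgeR. The call at 34 weeks was a narrow one, since it was lost under TMM (0.20, adjusted p = 0.139), with the macrophage covariate (0.15, adjusted p = 0.472), with the 34 week mice fitted alone (adjusted p = 0.181), with edgeR or DESeq2 (adjusted p = 0.116 and 0.126) and without any of 9 of the 34 week mice (adjusted p = 0.0527 to 0.129). Hnrnpa1 lies at chr15:103239943-103246698 and has pseudogene copies in the annotation that could share its reads. Hnrnpa3 lies at chr2:75659105-75669407, and its exons overlap those of Gm24574 on the same strand.

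The Hnrnpu-like genes Hnrnpul1 and Hnrnpul2, linked to the response to DNA breaks, were lower at 8 weeks and higher at 20 weeks on the deposited scale. Hnrnpul1 had 84.6, 89.2 and 103 CPM on CD and 72.2, 78.5 and 82.9 on HFD at 8 weeks (-0.23, SE 0.09, adjusted p = 0.0318), without overlap, a call that leaving out 1 of 4 mice ended (adjusted p = 0.0631 to 0.0841). It had 71.1, 81.3 and 92.9 against 92.7, 98.1 and 101 CPM at 20 weeks (0.26, SE 0.09, adjusted p = 0.00982) and 67.5, 82.2 and 95.3 against 83.6, 107 and 129 CPM at 34 weeks (0.41, SE 0.08, adjusted p = 0.000277), with little overlap. Hnrnpul2 had 160, 173 and 192 against 145, 148 and 162 CPM (CD against HFD) at 8 weeks (-0.21, SE 0.07, adjusted p = 0.0122) and 139, 159 and 175 against 172, 178 and 184 CPM at 20 weeks (0.18, SE 0.07, adjusted p = 0.0224). At 34 weeks it had 142, 151 and 177 against 161, 185 and 211 CPM (0.26, SE 0.06, adjusted p = 0.0014). The groups touched at the edges at 8 and 20 weeks and overlapped at 34 weeks. The 20 week rises of this pair were lost under TMM, where Hnrnpul1 differed by 0.05 (adjusted p = 0.586) and Hnrnpul2 by -0.04 (adjusted p = 0.662), and with the macrophage covariate (0.07 and 0.09, adjusted p = 0.652 and 0.475). The rise of Hnrnpul2 at 20 weeks was also lost without CD mouse 3 (adjusted p = 0.0731), and its rise at 34 weeks with the covariate (0.21, adjusted p = 0.0569). The genes lie at chr7:25721161-25756268 and chr19:8819401-8834143. Exons of Hnrnpul2 overlap those of AC129217.1 on the same strand.

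The 12 called falls of Hnrnp genes at 8 weeks ran from -0.18 (Hnrnpk) to -0.84 (Hnrnpu). Hnrnpl, which binds CA repeats, was the only Hnrnp gene above 0 at 8 weeks (0.11, not called), and it was higher at 20 weeks (0.21, adjusted p = 0.0183) with all HFD above all CD mice, a call lost under TMM (adjusted p = 0.931) and with the macrophage covariate (adjusted p = 0.925). Hnrnpa0 and Hnrnph2 were called at none of the 3 times. At 8 weeks both passed the threshold as lower under TMM (-0.32 and -0.27, adjusted p = 0.0183 and 0.00121) and with the covariate (-0.37 and -0.31, adjusted p = 0.0133 and 0.000988), as did Hnrnph2 at 20 weeks (-0.28 under TMM and -0.29 with the covariate, adjusted p = 0.000487 and 0.00902). Summed over the 21 Hnrnp genes, CPM ranged from 3512 to 3951 on CD and from 2568 to 3098 on HFD at 8 weeks, from 3442 to 3819 and 3120 to 3457 at 20 weeks, and from 2563 to 3674 and 2678 to 3585 at 34 weeks. The sums of the diets were apart at 8 weeks and met or overlapped later.

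At 20 weeks members were called in both directions on the deposited scale, while the higher calls depended on the scaling. There were 10 members lower, where 18.7% of all genes were, and 6 higher, where 38.3% were. The median member differed by -0.08, against 0.14 for all genes. The 10 lower members (Hnrnpa2b1, Hnrnph3, Hnrnpll, Hnrnpu, Srsf1, Srsf4, Srsf5, Srsf7, Srsf11 and Tra2b) had all been lower at 8 weeks, and the 6 higher were Hnrnpa3, Hnrnpdl, Hnrnpl, Hnrnpul1, Hnrnpul2 and Srsf9. HFD and CD mice did not overlap for 5 members lower in HFD (11.1% of all genes) and 2 higher (26.1% of all genes). TMM gave 19 lower members, with all 10 among them, and 0 higher, where it called 32.4% of all genes lower and 26.3% higher. Median-of-ratios scaling gave 17 lower and 1 higher, beside 29.1% and 28.5% of all genes. With the macrophage covariate 11 were lower, 8 of them among the 10, and 0 higher, beside 7.29% and 15.3% of all genes. The count of higher members dropped to 2 without CD mouse 3.

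At 34 weeks most called members were higher with HFD. The count was 14 of 34, where 27.5% of all genes were higher, and 1 member (Hnrnph3) was lower, where 15.7% were. The median member differed by 0.19, against 0.07 for all genes. The 14 were Srsf1, Srsf3, Srsf10, U2af2, Hnrnpa1, Hnrnpa3, Hnrnpab, Hnrnpc, Hnrnpd, Hnrnpf, Hnrnpk, Hnrnpr, Hnrnpul1 and Hnrnpul2, with rises of 0.19 (Srsf10) to 0.64 (Hnrnpa3). For 0 members were the diets apart in all mice, where 2.46% of all genes were. TMM left 8 of 34 members higher, all among the 14, a share close to the 22.4% of all genes it called higher. It gave 3 lower, where it called 20.8% of all genes lower. The macrophage covariate left 4 higher (Hnrnpa3, Hnrnpf, Hnrnpr and Hnrnpul1) and 0 lower, beside 6.44% and 3.8% of all genes. The 34 week mice fitted alone gave 6 of 34 higher, again a share close to that of all genes (16.4%). The lower count was 2 or 3 when any of 7 single mice was left out, namely 8 week HFD mouse 2, 20 week HFD mouse 4, 34 week CD mice 1, 6 and 7, and 34 week HFD mice 3 and 4.

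Whether the diet difference itself changed with time was tested with interaction terms. From 8 to 34 weeks the diet difference rose in 24 members, where 13% of all genes rose, and fell in 0, where 15.9% fell. No member fell at an unadjusted p under 0.05 or with edgeR or DESeq2. The 24 were 6 Srsf genes, 15 Hnrnp genes, Tra2b, U2af1 and U2af2. The median member changed by 0.48, against 0.00 for all genes, and 33 of 34 members lay above 0. This count was 26 under TMM and 28 with the macrophage covariate, each with all 24 among them, where 14.9% and 17.2% of all genes rose. It was 19 with no filter on low values and 18 to 29 with single mice left out. With the 1.5-fold minimum it was lower still, as given below. Hnrnpu changed the most (0.95, SE 0.16, adjusted p = 7.62e-05), followed by Srsf7 (0.85), Hnrnpf (0.76, SE 0.13, adjusted p = 0.000104), Srsf3 (0.73) and Hnrnpa3 (0.72). Srsf1 changed by 0.69 (SE 0.12, adjusted p = 9.94e-05), Tra2b by 0.59 (SE 0.14, adjusted p = 0.00164) and U2af2 by 0.42 (SE 0.10, adjusted p = 0.00149). Srsf9 (0.13, 95% interval -0.30 to 0.55), Tra2a (0.17, -0.26 to 0.60), Hnrnph3 (0.13, -0.28 to 0.54) and Hnrnpl (-0.05, -0.25 to 0.16) did not pass the test.

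By size, most of that change fell in the later interval for Srsf1 and Hnrnpu and in the earlier one for the Hnrnpu-like pair, a contrast between genes that was not tested. From 8 to 20 weeks the diet difference rose in 3 members (Hnrnpul1, Hnrnpul2 and Srsf3), where 2.81% of all genes rose, and fell in 0, where 1.67% fell. From 20 to 34 weeks it rose in 5 (Hnrnpk, Hnrnpr, Hnrnpu, Srsf1 and Srsf7), where 4.22% rose, and fell in 0, where 6.31% fell. No member fell in either interval at an unadjusted p under 0.05, nor with edgeR or DESeq2. Hnrnpul1 and Hnrnpul2 changed by 0.49 (SE 0.12, adjusted p = 0.0211) and 0.39 (SE 0.09, adjusted p = 0.0207) in the first interval, and Srsf1 and Hnrnpu by 0.68 (SE 0.12, adjusted p = 0.0006) and 0.74 (SE 0.16, adjusted p = 0.00396) in the second. Under TMM the counts of 3 and 5 became 1 (Hnrnpul1) and 17, beside 2.41% and 8.11% of all genes, and with the macrophage covariate 2 and 12, beside 3.03% and 5.44%. The first was 6 without 20 week CD mouse 1 or without 34 week CD mouse 5, and the second ranged from 3 to 11 over single mice left out, with the moves of over 1.5 times seen without 20 week CD mouse 4, 34 week CD mouse 5 or 34 week HFD mouse 1.

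The levels within each diet show which group moved. In CD mice no member changed from 8 to 20 weeks with limma, in either direction, where 1.7% of all genes rose and 1.88% fell. At an unadjusted p under 0.05, 1 member (Hnrnpll) was higher and 2 (Hnrnpul2 and Srsf3) were lower, and edgeR and DESeq2 each called 1 higher and 0 lower. Between 8 and 34 weeks, 22 members fell in CD mice, where 24.6% of all genes fell, and 2 rose (Srsf9 and Hnrnpl), where 40.1% did. TMM gave 24 and 2, where it called 31.8% and 31.6% of all genes. The largest falls were those of Hnrnpu (-1.04, SE 0.11, adjusted p = 4.19e-09), Hnrnph1 (-0.88), Srsf11 (-0.84), Srsf7 (-0.77) and Srsf1 (-0.71, SE 0.08, adjusted p = 1.79e-08). Srsf9 rose by 0.54 (SE 0.14, adjusted p = 0.00144). The macrophage markers rose in the same comparison, 13 of 15 being higher, and with their level as a covariate 25 members fell and 1 (Hnrnpl) rose, beside 24.3% and 26.6% of all genes. The rise of Srsf9 was not called in that fit (0.32, adjusted p = 0.149).

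**Figure D4:**
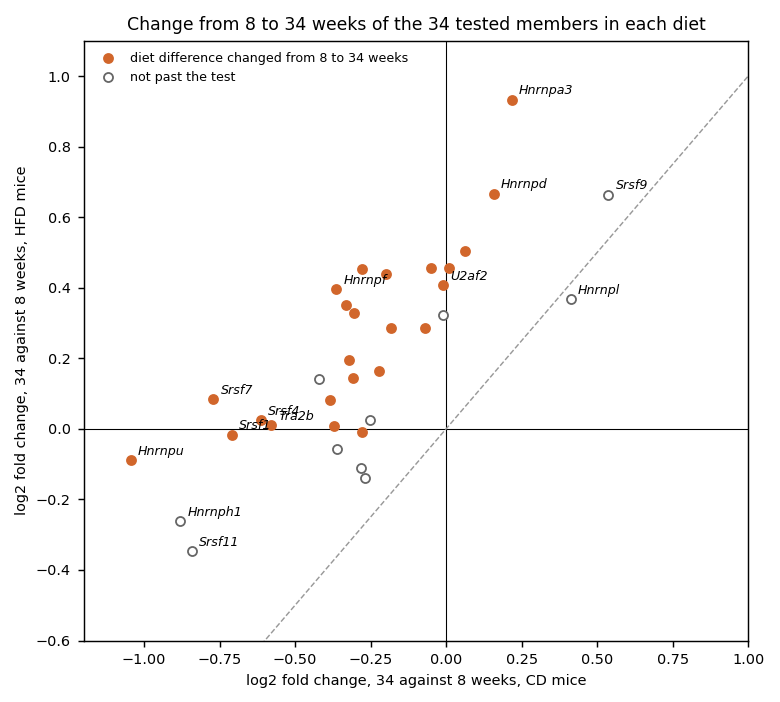
Each point is 1 of the 34 tested members, with its log2 change from 8 to 34 weeks in CD mice (horizontal) and in HFD mice (vertical); the dashed line marks equal change, and filled points passed the test of the difference between diets. All 24 filled points lie above the line, with Hnrnpu at -1.04 on CD and -0.09 on HFD.

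In HFD mice the members that passed the test rose. From 8 to 20 weeks 14 rose, where 21.2% of all genes rose, and 0 fell, where 15.3% fell. From 8 to 34 weeks 17 rose, where 31.7% rose, and 0 fell, where 20.8% fell. No member fell at an unadjusted p under 0.05 in either comparison, and edgeR and DESeq2 called 0 at 20 weeks and 1 at 34 weeks. Hnrnpa3 had the largest rise by 34 weeks (0.93, SE 0.14, adjusted p = 3.19e-06), followed by Hnrnpd (0.67) and Srsf9 (0.66, SE 0.15, adjusted p = 0.000516). Both U2AF chains rose (U2af1 by 0.45 and U2af2 by 0.41). Srsf1, Srsf4, Tra2b and Hnrnpu changed by -0.02, 0.02, 0.01 and -0.09 from 8 to 34 weeks and passed no test over that span. Srsf4 was among the 14 that rose from 8 to 20 weeks (0.34, SE 0.12, adjusted p = 0.0234), a call lost under TMM (0.26, adjusted p = 0.0971), with the macrophage covariate (0.38, adjusted p = 0.109) and without any of 4 mice (adjusted p = 0.0521 to 0.083). TMM gave 7 risers among the 34 members at 20 weeks, a share close to the 18.1% of all genes, and 13 at 34 weeks, beside 24.8%. The macrophage covariate left 0 and 3 (Hnrnpa3, Hnrnpd and U2af2), beside 2.89% and 8.95%, and the rises of Srsf9 (0.44, adjusted p = 0.0938) and U2af1 (0.35, adjusted p = 0.0929) to 34 weeks were not called in that fit. The 20 week count was 9 without 8 week HFD mouse 3 and 8 without 8 week HFD mouse 4.

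Ratios of 2 members within a mouse hardly depend on how libraries are scaled, so they were compared for 3 pairs at 3 times by exact two-sided permutation tests, adjusted over the 9 tests. The log2 ratio of Tra2a to Tra2b at 20 weeks was -0.21 ± 0.08 in HFD and -0.44 ± 0.09 in CD mice (SD, n = 6 each), a difference of 0.23 (exact p = 0.00216, adjusted p = 0.0195), and the groups did not overlap. At 8 weeks this difference was 0.16 (exact p = 0.0584, adjusted p = 0.11) and at 34 weeks it was -0.26 (exact p = 0.0626, adjusted p = 0.11). The ratio of Srsf1 to Hnrnpa1 was 0.14 on HFD and 0.15 on CD at 8 weeks, the difference being -0.01 (exact p = 0.846, adjusted p = 0.952). At 20 weeks it was -0.31 and 0.01 (difference -0.32, exact p = 0.013, adjusted p = 0.0519), and at 34 weeks -0.23 in both (exact p = 0.993). Both genes of that pair had thus fallen by like amounts at 8 weeks. U2af1 to U2af2 gave differences of -0.24, -0.10 and -0.22 at 8, 20 and 34 weeks (exact p = 0.0173, 0.0736 and 0.117, adjusted p = 0.0519, 0.11 and 0.151).

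**Figure D5:**
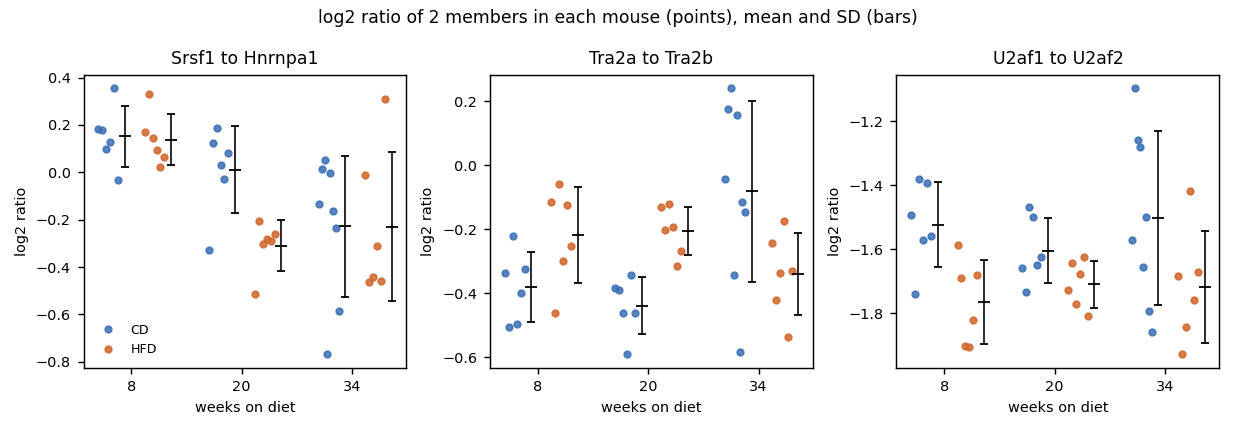
log2 ratio of Srsf1 to Hnrnpa1, Tra2a to Tra2b and U2af1 to U2af2 in each mouse against weeks on diet, with the mean and SD beside the points (blue CD, orange HFD). The diets are apart in 1 panel and time, Tra2a to Tra2b at 20 weeks.

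Members also varied together between mice of the same group. Over the 38 mice, as deviations from the group means, the 561 pairs of tested members had a median Pearson r of 0.44 (Spearman 0.36), where all pairs of tested genes had 0.04. Pairs share libraries, and this is given as a description. The closest were Srsf2 with Srsf6 (r = 0.91, rho = 0.86), Hnrnpf with Hnrnph2 (0.87, 0.78) and Srsf7 with Tra2b (0.86, 0.80). The most opposed were Srsf9 with Srsf11 (-0.47, -0.46), Hnrnpr with Srsf9 (-0.42, -0.24) and Hnrnpa3 with Hnrnph3 (-0.41, -0.39).

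The partners of these proteins were followed through 5 lists of 99 genes, of which 87 were tested, with Cirbp on 2 lists and counted once. At 8 weeks 45 of them (51.7%) were lower and 4 (4.6%) higher with HFD, beside 15.1% and 29.8% of all genes. At 20 weeks 22 (25.3%) were lower and 12 (13.8%) higher, beside 18.7% and 38.3%. At 34 weeks 6 (6.9%) were lower and 21 (24.1%) higher, beside 15.7% and 27.5%, so the share that was higher lay below that of all genes. Of 12 kinases, phosphatase partners and importins of SR proteins, 7, 2 and 1 were lower and 0, 3 and 2 higher at 8, 20 and 34 weeks. Of 22 SR-related and exon junction cofactors, 15, 7 and 1 were lower and 1, 1 and 4 higher, of 9 U2AF partners 4, 2 and 1 were lower and 1, 4 and 1 higher, of 26 other splicing regulators 10, 6 and 1 were lower and 1, 3 and 8 higher, and of 19 hnRNP-like and FET proteins 10, 6 and 2 were lower and 1, 1 and 6 higher. Srrm2, a scaffold of nuclear speckles, averaged 269.5 CPM on HFD and 549.3 on CD at 8 weeks (-1.06, SE 0.24, adjusted p = 0.00086), and Rbmx, an hnRNP G protein, at 18.7 and 38.4 (-1.03, SE 0.15, adjusted p = 3.4e-06). Rbmx was still lower at 20 weeks (-0.93, adjusted p = 3.03e-06), beside Rbfox2, which recognises UGCAUG (-1.16, adjusted p = 1.57e-07, and -0.50 at 34 weeks, adjusted p = 0.0043). Khdrbs3, a STAR family splicing regulator, averaged 4.98 CPM on HFD and 1.66 on CD at 8 weeks (1.17, adjusted p = 6.24e-05). At 20 weeks it averaged 4.71 and 2.56 CPM (0.70, adjusted p = 0.00502). These CD levels lay below the filter on low values. The filter was taken over all mice, so Khdrbs3 was tested only because other groups were higher. Pcbp3 was higher with HFD at 8 weeks (0.48) and Ptbp3 at 20 weeks (0.70). At 34 weeks Mbnl1, a muscleblind splicing factor (0.56, adjusted p = 0.000145), and Fubp1 (0.50, adjusted p = 0.000502) were higher and Pcbp4 lower (-0.46, adjusted p = 0.00776). From 8 to 34 weeks the diet difference rose for 45 of the 87 (51.7%, beside 13% of all genes) and fell for 1 (1.15%, beside 15.9%).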

How the data were processed

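RNA was sequenced from perigonadal adipocytes of 38 mice, each as 3 technical replicates, so that 114 labelled samples gave 1 column per mouse. The authors aligned the reads to mm10 with STAR, counted them over exons with featureCounts (Subread 1.5.1) and deposited CPM. The TMM scaling named in the study's methods was not visible in the CPM values, since every column summed to 1000000. Whether counting used strand is not given in the sources used here.

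CPM as deposited were tested with limma 3.58.1 (trended empirical Bayes, R 4.3.3) on log2(CPM + 1), for the 10343 of 29132 genes with a mean above 2, in 1 fit over 6 groups with 32 residual degrees of freedom, at a Benjamini-Hochberg adjusted p of 0.05. The pseudocount of 1 understates changes of low genes. Whole reads were recovered from the CPM (100% of values within 0.1 reads) and tested with edgeR 4.0.16 and DESeq2 1.42.0 as alternatives; at 8 weeks edgeR called 2287 genes higher and 2234 lower. At depths of 9275711 to 15480388 reads, counting error was below the SD between mice in all but 2 of the 204 combinations of a tested member and a group, the exceptions being Hnrnpa0 and Hnrnpr in CD mice at 8 weeks.

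Members, lists and tests were chosen with earlier results of these data known. Members given in full were the 3 largest called rises and falls with diet at each time, Tra2a, Tra2b, U2af1, U2af2, Srsf1 and Hnrnpa1, the 2 smallest adjusted p of each interaction, and the largest called rise and fall from 8 to 34 weeks in each diet. From the lists of partners, the 2 largest called rises and falls at each time were named. Positions are RefSeq genes on GRCm38. The limma fit was tested on simulated data first. Alternatives were a pseudocount of 0.25, other filters, TMM and median-of-ratios scaling, array weights, each time fitted alone, the macrophage level as a covariate, a block on mouse number, a fold minimum of 1.5, and leaving out each mouse.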

Additional observations from a re-analysis of the deposited data

Results flagged for a closer look

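Dixon's criterion was applied to 120 combinations of a member, sum or ratio with a group of mice. In 10 of them 1 mouse stood apart from the others of its group. For a single combination chance gives about 1 in 20. The combinations share mice and members, so the count of 10 cannot be set against that rate. The number given is its gap to the nearest mouse as a share of the range of the group. On HFD at 20 weeks, mouse 4 was high for Hnrnph3 (27.9 CPM, nearest 22.2, share 0.638) and for Srsf4 (60.9 CPM, nearest 45, share 0.631), and mouse 1 was low for the log2 ratio of Srsf1 to Hnrnpa1 (-0.515, nearest -0.305, share 0.677). On CD, mouse 5 was low for Srsf9 at 8 weeks (16.9 CPM, nearest 22, share 0.7) and mouse 3 was low for Tra2a at 20 weeks (58 CPM, nearest 73.6, share 0.843). On CD at 34 weeks, mouse 6 was low for Tra2b (50.1 CPM, nearest 66.8, share 0.541), and mouse 5 was high for U2af2 (126 CPM, nearest 104, share 0.656) and for the summed Hnrnp genes (3674 CPM, nearest 3037, share 0.529). On HFD at 34 weeks, mouse 1 was low for Tra2b (59.5 CPM, nearest 71.2, share 0.645) and mouse 4 was high for U2af1 (52.6 CPM, nearest 37.1, share 0.636).

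The diet difference changed between times, by the interaction test of limma, in 15 results for the members given in full. From 8 to 20 weeks it rose by 0.49 for Hnrnpul1 and 0.39 for Hnrnpul2 (log2). From 20 to 34 weeks it rose by 0.74 for Hnrnpu and 0.68 for Srsf1. From 8 to 34 weeks it rose by 0.95 for Hnrnpu, 0.76 for Hnrnpf, 0.72 for Hnrnpa3, 0.69 for Srsf1, 0.68 for Hnrnpa1, 0.64 for Srsf4, 0.64 for Hnrnpul1, 0.59 for Tra2b, 0.47 for Hnrnpul2, 0.45 for U2af1 and 0.42 for U2af2. The rise for U2af1 was not called without any 1 of 9 mice (adjusted p = 0.0522 to 0.0785).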

How the results depend on the processing

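The pseudocount of 0.25 and the filter at a mean of 1 changed no call of the members given in full, in 150 comparisons each. For HFD against CD at 8 weeks, the 0 members higher became 2 with array weights, and the 21 lower became 6 with a 1.5-fold minimum. At 20 weeks the 6 higher became 0 with TMM, 1 with median-of-ratios, 1 with edgeR, 1 with DESeq2, 11 with array weights, 0 with the macrophage covariate and 0 with the fold minimum, and the 10 lower became 19, 17, 18 and 17 with those scalings and count tests, 17 with array weights and 2 with the fold minimum. At 34 weeks the 14 higher became 8, 7, 7 and 7 in the same order, 6 with each time fitted alone, 4 with the covariate and 1 with the fold minimum, and the 1 lower became 3, 3, 4 and 5, 3 with array weights, 0 with the covariate and 0 with the fold minimum. From 8 to 20 weeks in CD mice, the 0 higher became 1 with edgeR, DESeq2 or array weights, and the 0 lower became 1 with array weights or the covariate. In CD mice by 34 weeks, the 2 higher became 1 with the covariate and 0 with the fold minimum, and the 22 lower became 6 with the fold minimum. In HFD mice from 8 to 20 weeks, the 14 higher became 7 with TMM, 9 with edgeR, 22 with array weights, 0 with the covariate and 1 with the fold minimum, and the 0 lower became 1 with TMM. In HFD mice by 34 weeks, the 17 higher became 3 with the covariate and 3 with the fold minimum, and the 0 lower became 1 with TMM, median-of-ratios, edgeR, DESeq2, array weights or the covariate. For the change of the diet difference from 8 to 20 weeks, the 3 higher became 1 with TMM, 1 with edgeR, 17 with array weights and 0 with the fold minimum. From 20 to 34 weeks the 5 became 17 with TMM, 11 with median-of-ratios, 15 with edgeR, 12 with DESeq2, 14 with array weights, 12 with the covariate and 2 with the fold minimum, and from 8 to 34 weeks the 24 became 11 with the fold minimum. The cause of these moves was not tested, except that the fold minimum adds a criterion. Counts here and below are of members alone, and shares of all genes stand beside the earlier counts for some settings only. A setting can move the calls of all genes too. A moved count is thus no measure of the members against other genes.

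Directions were counted as turned in 4 results. Hnrnpa3 differed by -0.0449 at 20 weeks and by -0.299 from 8 to 34 weeks in CD mice with the macrophage covariate. Hnrnpul2 differed at 20 weeks by -0.0370 with TMM and -0.0177 with edgeR, and the cause was not tested. Other differences that were not called also changed sign and were not counted. For U2af1 at 34 weeks the diet difference ranged from -0.041 to 0.119 over single mice left out.

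Mice of the 2 diets share numbers at each time, but nothing in the labels ties them, and the 18 same-numbered pairs correlated from -0.51 to 0.53. With the replicate block, the counts at 34 weeks became 9 higher and 3 lower, and the counts of changed diet differences became 0 (8 to 20 weeks) and 3 (20 to 34 weeks). The block was not run for times within a diet.

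With single mice left out there were 19 to 24 lower and 0 to 0 higher members at 8 weeks, 8 to 10 lower and 2 to 7 higher at 20 weeks, and 1 to 3 lower and 10 to 19 higher at 34 weeks. In CD mice the counts from 8 to 34 weeks were 19 to 23 lower and 2 to 3 higher, and in HFD mice there were 8 to 15 higher by 20 weeks, and 15 to 18 higher and 0 to 1 lower by 34 weeks, the 1 lower appearing without 34 week HFD mouse 2 or 3. The diet difference rose in 2 to 6, 3 to 11 and 18 to 29 members over the early, late and whole interval. The ratio differences ranged from 0.131 to 0.211 (Tra2a to Tra2b, 8 weeks, called without HFD mouse 2), -0.33 to -0.213 (Tra2a to Tra2b, 34 weeks, called without CD mouse 6), -0.389 to -0.28 (Srsf1 to Hnrnpa1, 20 weeks, called without CD mouse 1) and -0.285 to -0.213 (U2af1 to U2af2, 8 weeks, called without CD mouse 2 or HFD mouse 1 or 2).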
